A study of Homo sapiens with 16 samples.

Results

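The EGF receptor family and its ligands were examined as 9 genes in MCF10A, a line of human breast epithelial cells that became immortal in culture, forms no tumors and is grown with epidermal growth factor. The genes were the receptors *EGFR*, *ERBB2* and *ERBB3*, the ligands *AREG*, *EREG*, *HBEGF*, *TGFA* and *BTC*, and the receptor inhibitor *ERRFI1*, each found by its symbol among the 26475 genes of the count table. There were 16 RNA-seq libraries, 4 in each of 4 groups, and all cells were kept with 20 ng/mL human EGF, insulin, hydrocortisone, cholera toxin and horse serum. The control group received DMSO and no collagen, and the collagen group received DMSO and, for the last 24 h, 0.05 mg/mL collagen. The other two groups received the same collagen with DDR1-IN-1 at 2 μM (DDR1i), an inhibitor of the collagen receptor kinase DDR1, or with AI-10-104 at 5 μM (RUNXi), which blocks the binding of RUNX transcription factors to CBFβ, each for 48 h in all. The collagen was given in medium with NaOH for polymerization. The study's methods name NaOH only with the collagen, so that effects of collagen and of NaOH cannot be told apart. All libraries came from a single cell line, and the labels do not say whether replicates were separate cultures, so that every p-value measures the spread between these libraries only.

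Ligands of this family are made as membrane-bound precursors that proteases release, and they bind EGFR, which pairs with itself or with ERBB2 or ERBB3 and signals through RAS-ERK and PI3K-AKT. AREG, EREG, HBEGF, TGFA and BTC all bind EGFR, and HBEGF, EREG and BTC also bind ERBB4. ERBB2 has no known ligand of its own, ERBB3 has little kinase activity and binds neuregulins, and ERRFI1 (MIG6) is a feedback inhibitor that binds the EGFR kinase domain. In breast epithelium AREG is known as the ligand that acts downstream of estrogen in duct growth, and MCF10A cells need EGF to proliferate.

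Values below are normalized CPM, the usual rate of read counts per library, scaled with edgeR's TMM method over all 16 libraries, and a level per kb is that value divided by the length of the canonical transcript. Total counts ranged from 12184619 to 44332378 per library, and libraries had counts on 12074 to 17133 genes. All 8 markers of basal-type breast epithelium were above 1 CPM in every library, with summed levels from 12256 CPM to 22570 CPM. Markers of other cells were low, with sums of 5.42 to 32.9 CPM for 7 fibroblast markers and 0 to 3.98 CPM for 5 endothelial markers, and *COL3A1* and *CDH5* were at 0 in all libraries. Collagen replicate 3 was removed by the authors as an outlier. It was left out of the tests here, and its values are given beside those of the other collagen libraries. By counts over all genes, collagen replicate 4 was farther from replicates 1 and 2 (chi-square divided by its degrees of freedom 60.6 and 58.7) than replicate 3 was (38.3 and 42.3). In collagen replicate 4, expression relative to the other libraries fell with transcript length, with a slope of -0.21 (log2 CPM per doubling of length), against slopes from -0.07 to 0.09 in the other 15 libraries.

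Promoters of 3 genes are shown because *AREG* was the most abundant member, *EREG* is its neighbour on chromosome 4, and *EGFR* had the largest log2 fold changes of the 9 genes in the 3 comparisons with the collagen group. Of the 9 genes, 8 were found in a RefSeq promoter table, and the 250 bases before each start were located in GRCh37. *ERBB3* had no entry. Both strands were searched for 5 motifs. These were the core of the RUNX site with the letters TGTGGT, the cyclic AMP response element (CRE) with TGACGTCA, and the AP-1 site with TGACTCA. The other two were the TATA box, written TATAAA, and the GC box, written GGGCGG. Capitals mark the matches in the sequences below, and a GC box on the other strand appears as CCGCCC.
AREG, chr4:75310603-75310852, plus strand: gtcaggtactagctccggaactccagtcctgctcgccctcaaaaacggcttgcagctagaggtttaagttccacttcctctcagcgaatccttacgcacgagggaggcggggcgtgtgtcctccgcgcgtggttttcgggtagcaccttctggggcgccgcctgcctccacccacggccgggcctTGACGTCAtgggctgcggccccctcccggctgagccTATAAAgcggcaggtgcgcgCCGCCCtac
EREG, chr4:75230612-75230861, plus strand: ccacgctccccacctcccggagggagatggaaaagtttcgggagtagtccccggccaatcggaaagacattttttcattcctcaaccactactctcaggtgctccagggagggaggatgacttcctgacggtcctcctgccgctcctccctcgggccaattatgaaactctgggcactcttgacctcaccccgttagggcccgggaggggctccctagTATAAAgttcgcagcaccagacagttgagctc
EGFR, chr7:55086460-55086709, plus strand: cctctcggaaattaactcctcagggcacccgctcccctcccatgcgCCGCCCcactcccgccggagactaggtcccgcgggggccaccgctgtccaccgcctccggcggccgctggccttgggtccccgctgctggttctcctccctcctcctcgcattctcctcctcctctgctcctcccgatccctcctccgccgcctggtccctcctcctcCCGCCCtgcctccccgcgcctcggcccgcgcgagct

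The window of *AREG* (GC content 65.2%) held a CRE that began 65 bases before the start, a TATA box 29 bases before it and a GC box at 9 bases. That of *EREG* (58.0% GC) held a TATA box at 32 bases, and that of the first *EGFR* entry (73.6% GC) had no TATA box and held GC boxes at 204 and 36 bases. *EPGN*, the gene of a further EGFR ligand in the same cluster on chromosome 4, also had a TATA box, at 29 bases. No first entry of the 8 matched members or of *EPGN* held the RUNX core or an AP-1 site, and 5 held a GC box. A second entry of *EGFR*, inside the gene at chr7:55177282-55177531 and not shown, held AP-1 sites that began 232 and 136 bases before its start and TATA boxes at 146 and 36 bases. Of 35116 promoter windows of this length, 10.98% held the RUNX core, 1.65% a CRE, 4.20% an AP-1 site, 10.7% a TATA box and 42.6% a GC box. These matches describe the letters in the windows, and binding was not measured.

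Of all family members, *AREG* had by far the highest level per length. Its median over the 16 libraries was 536 CPM per kb (334.9 to 818), and its range overlapped with that of no other member. It was followed by *EPGN*, which was not among the 9 genes, at a median of 43.0 (32.2 to 62.0). *TGFA* at 21.1, *ERRFI1* at 18.6, *EGFR* at 16.6, *HBEGF* at 13.3 and *ERBB2* at 13.0 CPM per kb had overlapping ranges, each with its neighbour in the order, and their order is not settled by these libraries. *EREG* came next at 4.63 (2.40 to 7.08), below *ERBB2* and above *NRG1* in all 16 libraries. *NRG1*, a neuregulin that binds ERBB3, and *ERBB3* itself overlapped, at medians of 1.13 and 1.06 CPM per kb, and *BTC* was lowest at 0.44. *ERBB4* had 5 counts in all, in 4 libraries, and *EGF* had 67 counts in 6 libraries. A count of 0 allowed up to 0.0867 to 0.24 CPM for these genes, at a limit of 3 counts per library.

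**Figure D1:**
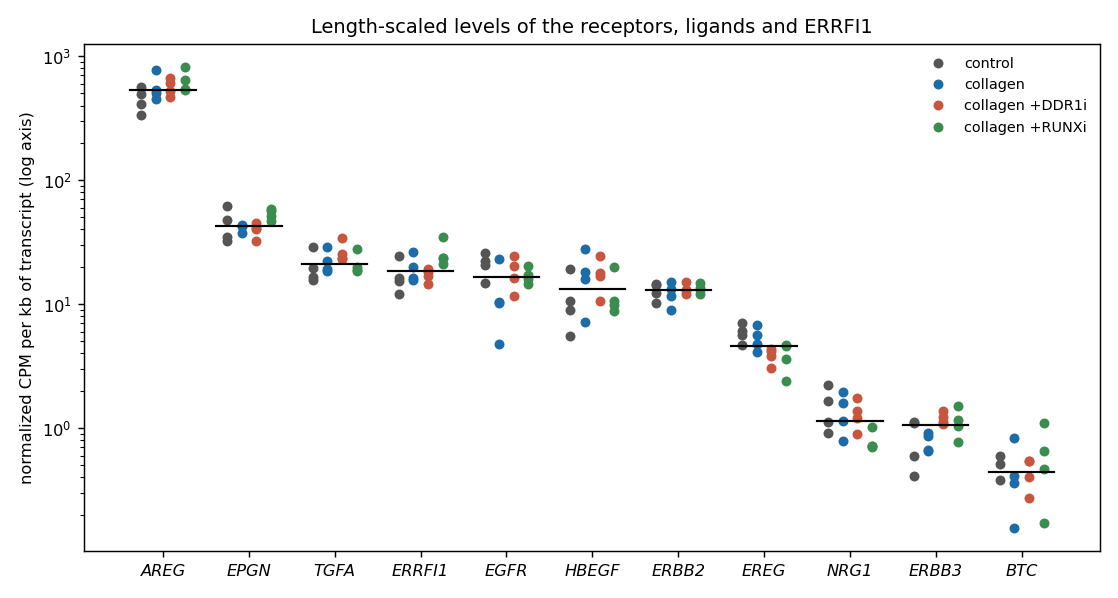
Level of each receptor, ligand and *ERRFI1* in normalized CPM per kb of canonical transcript, on a log axis, with 1 point per library and a colour per group. *AREG* lies above all others, *EPGN* follows at a median of 43.0, and *BTC* is lowest, with 1 control library at 0 counts that a log axis cannot show.

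*AREG* alone made up 83.9% to 89.7% of the summed level per length of 6 EGFR ligands (*AREG*, *EPGN*, *TGFA*, *HBEGF*, *EREG* and *BTC*) in every library. The share of *EPGN* was 4.32% to 9.18%, that of *TGFA* 2.75% to 4.39% and that of *HBEGF* 1.16% to 4.35%. *EREG* made up 0.385% to 1.27%. Its share was 0.97% to 1.27% in the control group, 0.556% to 1.07% in collagen replicates 1, 2 and 4, 0.442% to 0.694% with DDR1i and 0.385% to 0.631% with RUNXi. Of the 3 receptors, *EGFR* took 57.4% to 66.1% of the summed level per length in the control group and 32.6% to 45.8% in collagen replicates 1, 2 and 4, with 59.4% in collagen replicate 3. With DDR1i it took 46.8% to 63.4% and with RUNXi 49.7% to 56.3%. The level of *EGFR* per length was therefore above that of *ERBB2* in 12 of 16 libraries, and the ratio was below 1 in collagen replicates 1, 2 and 4 (0.533 to 0.891) and in 1 DDR1i library (0.959).

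*EGFR*, which encodes the receptor for EGF and the 6 ligands above, is at chr7:55086710-55279321 on the plus strand (GRCh37). Its levels were 207, 146, 221 and 257 CPM in control replicates 1 to 4. In the collagen group they were 102, 102 and 47.6 CPM in replicates 1, 2 and 4, and 230.4 CPM in replicate 3. The 3 collagen libraries that were tested were thus below all 4 controls, whereas replicate 3 lay within the control range. With DDR1i the levels were 115, 161, 199.5 and 241 CPM, and with RUNXi they were 169, 158, 143 and 203 CPM. All 8 inhibitor libraries were above collagen replicates 1, 2 and 4.

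Mean *EGFR* was 83.7 ± 31.3 CPM in the tested collagen libraries (SD, n = 3), against 208 ± 46.1 CPM in the control group, 179 ± 53.6 CPM with DDR1i and 168 ± 25.3 CPM with RUNXi (SD, n = 4 each). The log2 fold change of collagen against control was -1.30 (SE 0.25, 95% interval -1.84 to -0.77, adjusted p = 0.107 by the quasi-likelihood test of edgeR, adjusted over all genes tested by the Benjamini-Hochberg method). Against the same 3 collagen libraries, DDR1i gave 1.10 (SE 0.30, 0.44 to 1.75, edgeR adjusted p = 0.0806) and RUNXi 1.00 (SE 0.30, 0.35 to 1.65, edgeR adjusted p = 0.0834). None passed the threshold of 0.05. DDR1i and RUNXi differed by 0.09 (95% interval -0.49 to 0.68, edgeR adjusted p = 0.999).

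The calls for *EGFR* depended on the test and on single libraries. With DESeq2, the tool that the authors used, the adjusted p-values were 4.83e-05 for collagen against control, 0.0107 for DDR1i and 0.0184 for RUNXi, all past 0.05. With collagen replicate 3 included, the edgeR log2 fold changes were -0.78 (adjusted p = 0.803), 0.57 (adjusted p = 0.734) and 0.47 (adjusted p = 0.666), and none was called by DESeq2 either. Without collagen replicate 4 they were -1.02, 0.82 and 0.73, and after a correction of each library for transcript length they were -1.05 (adjusted p = 0.0855), 0.78 (adjusted p = 0.131) and 0.73 (adjusted p = 0.153). Without DDR1i replicate 1 the edgeR adjusted p was 0.0117 for DDR1i and 0.0290 for RUNXi, and without DDR1i replicate 4 it was 0.0457 for RUNXi. *EGFR* has the longest canonical transcript of the 9 genes (9905 bases), and the libraries with low *EGFR* (collagen 1, 2 and 4 and DDR1i 1) were also the 4 with the lowest length slopes. *EGFR-AS1*, which overlaps *EGFR* on the other strand, had at most 4 counts in a library.

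**Figure D2:**
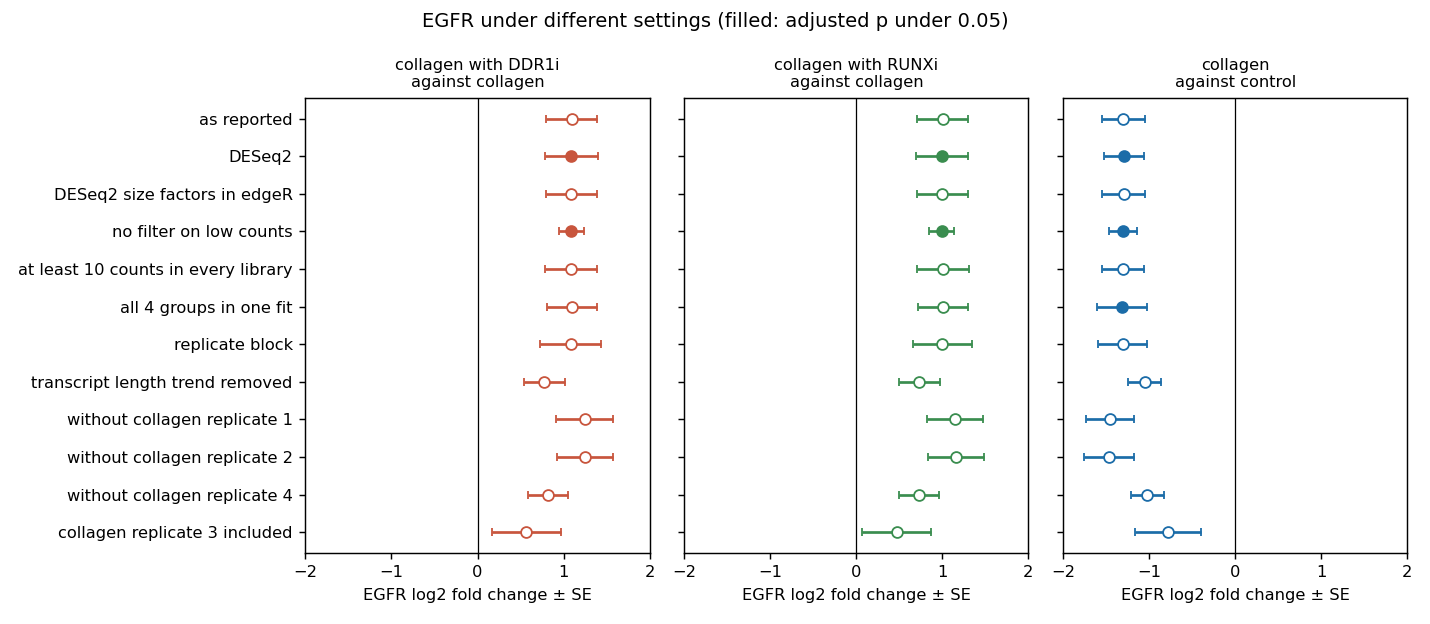
Log2 fold change of *EGFR* with its SE (x axis) in 3 comparisons, for the test as reported and for other settings (y axis), filled where the adjusted p-value was under 0.05. The direction was the same in all settings drawn, and with collagen replicate 3 included the values were -0.78, 0.57 and 0.47.

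*ERBB2*, which encodes the co-receptor without a ligand of its own (chr17:37844167-37886679, plus strand), differed little between groups. Its levels were 46.7 to 65.6 CPM in the control group, 41.1 to 60.4 CPM in collagen replicates 1, 2 and 4 (68.5 CPM in replicate 3), 55.4 to 68.3 CPM with DDR1i and 55.4 to 67.5 CPM with RUNXi, so that all groups overlapped. The lowest library was collagen replicate 4. The log2 fold changes were -0.18 (95% interval -0.57 to 0.22) for collagen against control, 0.23 (-0.07 to 0.54) for DDR1i and 0.24 (-0.06 to 0.55) for RUNXi, with edgeR adjusted p-values of 0.771, 0.437 and 0.356. *MIEN1* and *PGAP3* overlap *ERBB2* on the other strand in the annotation, and how their shared reads were counted is not given in the sources used here.

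*ERBB3*, which encodes the neuregulin receptor (chr12:56470583-56497289, plus strand), was low in all libraries, with 37 to 280 counts. Its levels were 6.19, 3.36, 2.30 and 6.24 CPM in the control group and 3.76, 3.66 and 5.13 CPM in collagen replicates 1, 2 and 4, with 4.82 CPM in replicate 3. With DDR1i they were 6.06, 7.75, 6.85 and 6.31 CPM, and with RUNXi 6.52, 4.34, 8.41 and 5.80 CPM. All DDR1i libraries were above all collagen libraries, replicate 3 included, and the RUNXi range overlapped with collagen. With DDR1i the log2 fold change was 0.69 (SE 0.34, 95% interval -0.0045 to 1.38, edgeR adjusted p = 0.282), and that with RUNXi was 0.57 (SE 0.33, edgeR adjusted p = 0.341).

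*AREG*, which encodes amphiregulin (chr4:75310853-75320722, plus strand), was the most abundant ligand. Its levels were 612, 504, 413 and 699 CPM in the control group, and 662, 627 and 956 CPM in collagen replicates 1, 2 and 4, with 560.5 CPM in replicate 3. With DDR1i they were 748, 645, 577 and 827 CPM, and with RUNXi 787, 674.5, 661 and 1009 CPM. All groups overlapped, and replicate 4 was the highest of its group in each of the 4. The log2 fold change of collagen against control was 0.43 (SE 0.18, 95% interval 0.06 to 0.81, edgeR adjusted p = 0.288), and those of the inhibitors against collagen were -0.10 (-0.44 to 0.24) and 0.06 (-0.28 to 0.40).

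The count of *AREG* is uncertain in this genome build. GRCh37 holds a second copy, *AREGB*, at chr4:75480629-75490486, whose transcript was identical to that of *AREG* at 1233 bases with 1 mismatch (99.9% identity). Of 1085 windows of 150 bases, the read length, along the *AREG* transcript, 935 (86.2%) were also found in *AREGB*, and the 250 bases before the start were identical at both copies. The table has no entry for *AREGB*, and the treatment of reads that map to both is not given in the sources used here, so that it is not known how reads shared by the copies entered the values of *AREG*.

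*EREG*, which encodes epiregulin (chr4:75230862-75254466, plus strand), had lower levels in both inhibitor groups than in the tested collagen libraries, not past the threshold. Its levels were 26.2, 27.8, 21.6 and 32.7 CPM in the control group and 31.4, 25.8 and 22.2 CPM in collagen replicates 1, 2 and 4, with 19.0 CPM in replicate 3. With DDR1i they were 14.1, 19.1, 17.4 and 20.2 CPM, and with RUNXi 21.1, 16.6, 11.1 and 21.7 CPM. All 8 inhibitor libraries were below the 3 tested collagen libraries, while collagen replicate 3 lay inside both inhibitor ranges. With DDR1i the log2 fold change was -0.58 (SE 0.22, 95% interval -1.04 to -0.12, edgeR adjusted p = 0.157) and with RUNXi -0.59 (SE 0.22, -1.04 to -0.13, edgeR adjusted p = 0.125). Neither passed the threshold, and collagen alone and control differed by -0.03 (-0.49 to 0.43).

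*HBEGF*, which encodes heparin-binding EGF-like growth factor (chr5:139712428-139726188, minus strand), varied widely among replicates. Its levels were 45.5, 13.0, 21.3 and 25.0 CPM in the control group and 65.3, 37.6 and 42.4 CPM in collagen replicates 1, 2 and 4, with 16.9 CPM in replicate 3. With DDR1i they were 42.2, 24.8, 39.7 and 57.1 CPM, and with RUNXi 25.0, 20.9, 23.1 and 47.3 CPM. Control replicate 1 and RUNXi replicate 4 were high within their groups, and all groups overlapped. Collagen against control gave 0.88 on the log2 scale (SE 0.32, 95% interval 0.19 to 1.57, edgeR adjusted p = 0.251), and that of RUNXi against collagen was -0.74 (SE 0.31, -1.41 to -0.06, edgeR adjusted p = 0.196). Without RUNXi replicate 4 the latter was -1.08 (edgeR adjusted p = 0.0272). With collagen replicate 3 included DDR1i and collagen differed by 0.0041, against -0.25 without it.

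*TGFA*, which encodes transforming growth factor alpha (chr2:70674416-70781325, minus strand), had levels of 68.3, 80.6, 64.0 and 118 CPM in the control group and 91.9, 76.7 and 118 CPM in collagen replicates 1, 2 and 4, with 79.0 CPM in replicate 3. With DDR1i they were 94.3, 104, 96.3 and 139.8 CPM, and with RUNXi 82.0, 77.0, 75.8 and 114 CPM. As for *AREG*, replicate 4 was the highest library of each group. DDR1i and RUNXi differed by 0.32 on the log2 scale (SE 0.16, 95% interval -0.0037 to 0.65, edgeR adjusted p = 0.806), and the other differences of *TGFA* were smaller.

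*BTC*, which encodes betacellulin (chr4:75669969-75719733, minus strand), had 0 to 55 counts per library and 447 in all. Its levels were 0 to 1.59 CPM in the control group, 0.42 to 2.19 CPM with collagen, 0.72 to 1.45 CPM with DDR1i and 0.45 to 2.93 CPM with RUNXi. The single library at 0, control replicate 3, had a limit of 0.187 CPM at 3 counts. All intervals of the log2 fold change of *BTC* spanned at least -1.52 to 1.31, so that a difference was not detectable at this depth.

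*ERRFI1*, the inhibitor gene (chr1:8064464-8086369, minus strand), had higher levels with RUNXi than with DDR1i. Its levels were 76.0, 37.2, 50.7 and 47.8 CPM in the control group and 80.8, 61.1 and 48.1 CPM in collagen replicates 1, 2 and 4, with 50.6 CPM in replicate 3. With DDR1i they were 52.3, 56.3, 58.9 and 44.7 CPM, and with RUNXi 108, 73.2, 73.1 and 64.8 CPM. All RUNXi libraries were above all DDR1i libraries, and both overlapped with the collagen and control groups. The log2 fold change of DDR1i against RUNXi was -0.59 (SE 0.16, 95% interval -0.92 to -0.25), with an edgeR adjusted p of 0.158. With the replicate number as a block it was -0.56 with an edgeR adjusted p of 0.0255, which passed the threshold. Without collagen replicate 4, which is in neither group of that comparison but shares its fit, the edgeR adjusted p was 0.0458.

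**Figure D3:**
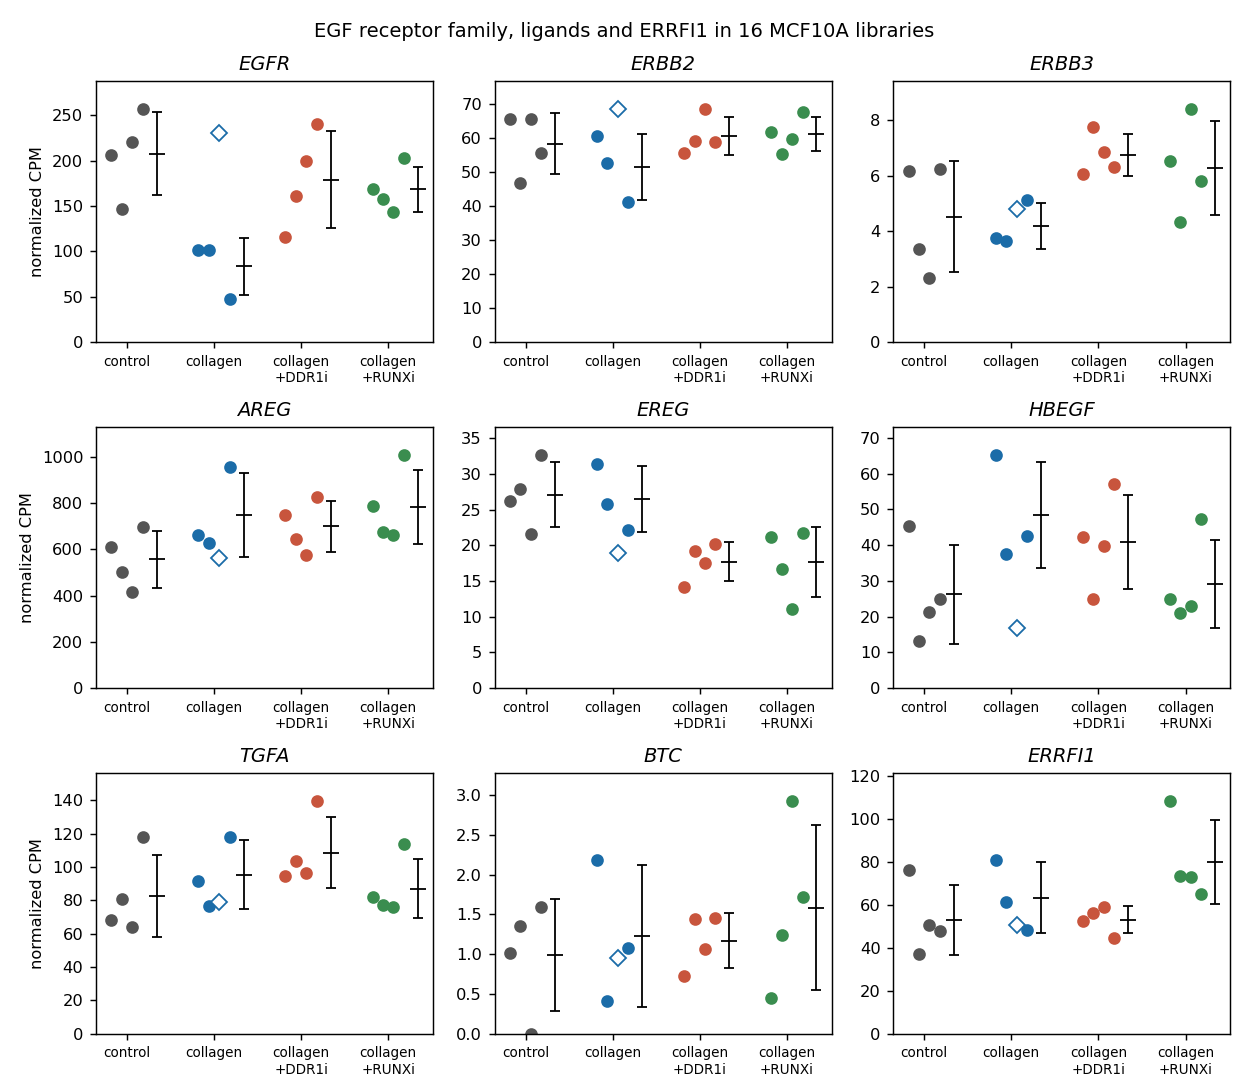
Normalized CPM (y axis) of each of the 9 genes in the 4 groups (x axis), with 1 point per library and the mean ± SD of each group. The open diamond is collagen replicate 3, which is not in the mean, and for *EGFR* it lies at 230.4 CPM, within the control range, while the other collagen libraries lie at 102 CPM or below.

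In all, 0 of the 9 genes passed an adjusted p of 0.05 in any of the 4 comparisons by edgeR without a replicate block. The block added *ERRFI1* between the inhibitors, as given above, and *HBEGF* with RUNXi. For RUNXi against collagen, deviations of same-numbered libraries from their group means correlated at 0.054 to 0.231, with 1 of 3 pairs over 0.1. This does not settle whether the numbers pair the samples. Fits of edgeR with no filter on low counts or with all 4 groups together also called members. Among all genes tested, 2.47% passed for DDR1i against collagen, 4.05% for RUNXi against collagen, 0.568% for DDR1i against RUNXi and 0% for collagen against control. By direction, 1.69% of genes were higher and 0.775% lower with DDR1i than with collagen, 2.59% and 1.46% with RUNXi, and 0.347% and 0.221% with DDR1i than with RUNXi. At an unadjusted p under 0.05 in the same edgeR tests there were 2, 3, 1 and 3 of the 9 genes, in the same order, against a background of 18.0%, 21.1%, 6.19% and 13.4% of genes. DESeq2 called *EGFR* in 3 of the comparisons and no member for DDR1i against RUNXi, where it called 6.15% of all genes for DDR1i, 8.51% for RUNXi, 0.989% between the inhibitors and 3.17% for collagen against control. Ranges did not overlap for *EGFR* and *ERBB3* (higher) and *EREG* (lower) with DDR1i, and 15.2% of all genes did not overlap in that comparison (8.35% higher, 6.84% lower). With RUNXi they did not overlap for *EGFR* (higher) and *EREG* (lower), with a background of 18.2% (9.20% higher, 9.03% lower). Between the inhibitors this held for *ERRFI1*, lower with DDR1i, against 4.52% of genes (2.43% higher, 2.10% lower). Between collagen and control it held for *EGFR*, lower with collagen, against 13.7% of genes (6.91% higher, 6.83% lower). The inhibitor comparisons share their collagen libraries, and so do collagen against control and both of them, so that a low or high value in those libraries enters all 3.

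**Figure D4:**
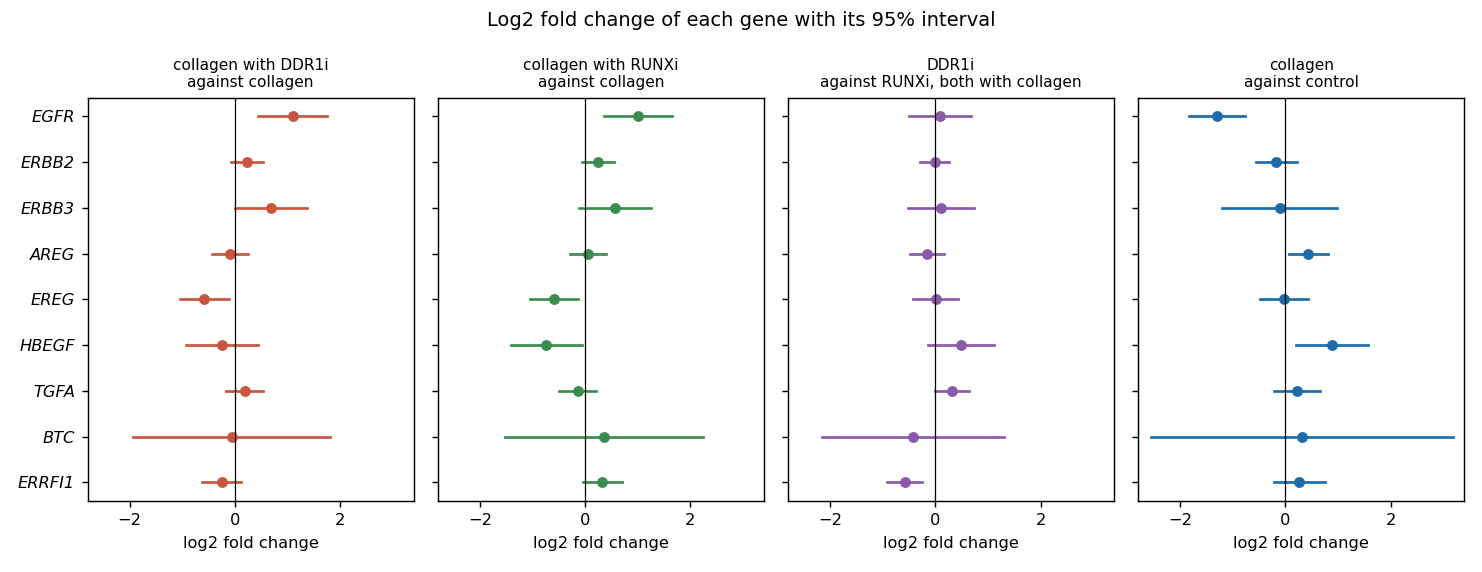
Log2 fold change (x axis) of each of the 9 genes (y axis) in the 4 comparisons, with its 95% interval and collagen replicate 3 left out. The intervals of *EGFR* lie away from 0 in 3 comparisons (-1.30, 1.10 and 1.00), and no edgeR adjusted p-value was under 0.05.

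Other genes of the pathway were described in 5 lists by role, beside all genes tested (median log2 fold change from 0.0037 to 0.0089 in the 4 comparisons). Of the 59 genes tested, edgeR called 2 with DDR1i (3.39%, against 2.47% of all genes), 6 with RUNXi (10.2%, against 4.05%), 1 between the inhibitors (1.69%, against 0.568%) and 0 for collagen against control. DESeq2 called 7, 9, 1 and 1 of them (11.9%, 15.3%, 1.69% and 1.69%), against 6.15%, 8.51%, 0.989% and 3.17% of all genes. Of 8 other receptors and ligands, 4 were tested and none passed by edgeR or DESeq2 in any comparison. *EPGN* was 125 to 155 CPM with RUNXi and 86.6 to 122 CPM with DDR1i, without overlap (log2 fold change of DDR1i against RUNXi -0.41, SE 0.12, edgeR adjusted p = 0.200). *NRG1* was 8.45 to 12.1 CPM with RUNXi and 10.7 to 20.8 CPM with DDR1i (0.73, SE 0.25, edgeR adjusted p = 0.366). These 2 ligands thus differed in opposite directions between the inhibitors, neither past the threshold.

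Among 6 genes of shedding proteases, which release the ligands from the membrane, and of iRhoms, 1 passed with RUNXi by edgeR and by DESeq2. None passed in the other comparisons by either test. The median log2 fold change was 0.39 with DDR1i, 0.44 with RUNXi and -0.40 for collagen against control. These medians share collagen replicates 1, 2 and 4. In replicate 4 *ADAM9* was at 102 CPM, against 187 to 235 CPM in the other collagen libraries. There *ADAM17* was at 20.1 CPM against 27.8 to 35.9 CPM, and *ADAM10* at 52.6 CPM against 82.1 to 98.3 CPM. *ADAM12* was also lowest in replicate 4, whereas *RHBDF1* and *RHBDF2* were not. *RHBDF2*, the gene called with RUNXi, encodes iRhom2, a partner of the protease ADAM17. Its levels were 21.7, 24.9 and 23.3 CPM in collagen replicates 1, 2 and 4 (39.7 CPM in replicate 3) and 46.5, 30.8, 51.5 and 45.2 CPM with RUNXi (0.89, SE 0.18, edgeR adjusted p = 0.0110). With DDR1i it was 25.5 to 35.5 CPM (0.40, edgeR adjusted p = 0.245). The call with RUNXi was lost with collagen replicate 3 included (0.65, edgeR adjusted p = 0.196).

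Of 24 adaptors and RAS-ERK and PI3K-AKT genes, only *PLCG1* passed by edgeR, and it did so with both inhibitors. DESeq2 also called *PTPN11* with DDR1i (0.47, adjusted p = 0.0315) and *HRAS* with RUNXi (-0.54, adjusted p = 0.0399). *PTPN11* was at 258, 247 and 153 CPM in collagen replicates 1, 2 and 4 and at 262 to 328 CPM with DDR1i. *HRAS* was at 119, 123 and 210 CPM in those collagen libraries and at 93.1 to 116 CPM with RUNXi. In collagen replicate 3 both lay within the inhibitor range (318 and 113 CPM). With that library included, or with the length trend removed, edgeR called no gene of this list. *PLCG1* encodes phospholipase C gamma 1, which binds activated EGFR. Its levels were 79.4, 89.1 and 69.5 CPM in collagen replicates 1, 2 and 4, 132 CPM in replicate 3, 108 to 132 CPM with DDR1i and 109 to 133 CPM with RUNXi. The log2 fold change was 0.58 with DDR1i (SE 0.13, edgeR adjusted p = 0.0169) and 0.57 with RUNXi (SE 0.13, edgeR adjusted p = 0.0180). With collagen replicate 3 included these were 0.35 (adjusted p = 0.536) and 0.34 (adjusted p = 0.373), and with the length trend removed 0.32 (adjusted p = 0.188) and 0.34 (adjusted p = 0.154), by edgeR.

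Of 15 further negative regulators, none passed with DDR1i and 2 rose with RUNXi by edgeR. DESeq2 called 1 with DDR1i (*NF1*, adjusted p = 0.0209) and 3 with RUNXi, with *LRIG1* (adjusted p = 0.0433) beside *NF1* and *CBL*. *NF1*, which encodes a RAS GTPase activating protein, was 49.5, 49.7 and 26.5 CPM in collagen replicates 1, 2 and 4 and 65.8 to 75.9 CPM with RUNXi (0.74, SE 0.18, edgeR adjusted p = 0.0225). *CBL*, which encodes a ubiquitin ligase that directs EGFR to degradation, was 42.8 to 64.9 CPM in those collagen libraries and 62.8 to 85.5 CPM with RUNXi (0.56, SE 0.16, edgeR adjusted p = 0.0451). Both were within the RUNXi range in collagen replicate 3 (75.7 and 76.4 CPM), and neither was called with it included (edgeR adjusted p = 0.357 and 0.356) or with the length trend removed (adjusted p = 0.140 and 0.402). With DDR1i, *NF1* had edgeR adjusted p-values of 0.631 and 0.439 in these settings. *LRIG1* was at 9.71, 11.1 and 7.58 CPM in collagen replicates 1, 2 and 4 and at 17.7 CPM in replicate 3. Its mean with RUNXi was 15.7 CPM, as scaled in the fit of the inhibitor comparisons.

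Among 10 genes that are known outputs of ERK signalling, *SPRY4* rose with both inhibitors and *PHLDA1* fell with RUNXi by edgeR. DESeq2 called 4 with DDR1i, all higher, *SPRY4* and also *CCND1* (0.38, adjusted p = 0.00391), *EPHA2* (0.44, adjusted p = 0.0407) and *DUSP4* (0.34, adjusted p = 0.0496). With RUNXi it added *CCND1* (0.34, adjusted p = 0.0101). The edgeR adjusted p with DDR1i was 0.0563 for *CCND1*, 0.0870 for *EPHA2* and 0.120 for *DUSP4*. Nor did edgeR call them with collagen replicate 3 included or with the length trend removed. *SPRY4*, which encodes a Sprouty inhibitor of receptor signalling, was 33.8, 32.3 and 44.4 CPM in collagen replicates 1, 2 and 4 and 49.8 CPM in replicate 3. With DDR1i it was 63.6, 64.6, 69.2 and 69.6 CPM, and with RUNXi 70.8, 57.9, 61.2 and 73.4 CPM, above all collagen and all control libraries (42.4 to 54.6 CPM). The log2 fold change was 0.85 (SE 0.15, edgeR adjusted p = 0.00428) and 0.83 (SE 0.15, edgeR adjusted p = 0.00325), and with collagen replicate 3 included it was 0.73 (adjusted p = 0.0620) and 0.70 (adjusted p = 0.0284).

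*PHLDA1*, which encodes a pleckstrin homology-like domain protein, was 208, 193 and 191 CPM in collagen replicates 1, 2 and 4, 136 CPM in replicate 3, 181 to 203 CPM with DDR1i and 108 to 160.5 CPM with RUNXi. It was lower with RUNXi than with collagen (-0.55, SE 0.13, edgeR adjusted p = 0.0189) and higher with DDR1i than with RUNXi (0.51, SE 0.12, edgeR adjusted p = 0.0432). With collagen replicate 3 included the values were -0.45 and 0.52 and neither was called (edgeR adjusted p = 0.220 and 0.155). With the length trend removed they were -0.74 (edgeR adjusted p = 0.00322) and 0.49 (edgeR adjusted p = 0.0597). For collagen against control no gene of the 5 lists was called by edgeR. By that test 9 of 59 (15.3%) had an unadjusted p under 0.05, near the 13.4% of all genes. DESeq2 called 1 (*PTPN11*, 1.69% of the 59, against 3.17% of all genes). In collagen replicate 3 *PTPN11* was at 318 CPM, within the control range of 271 to 386 CPM.

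**Figure D5:**
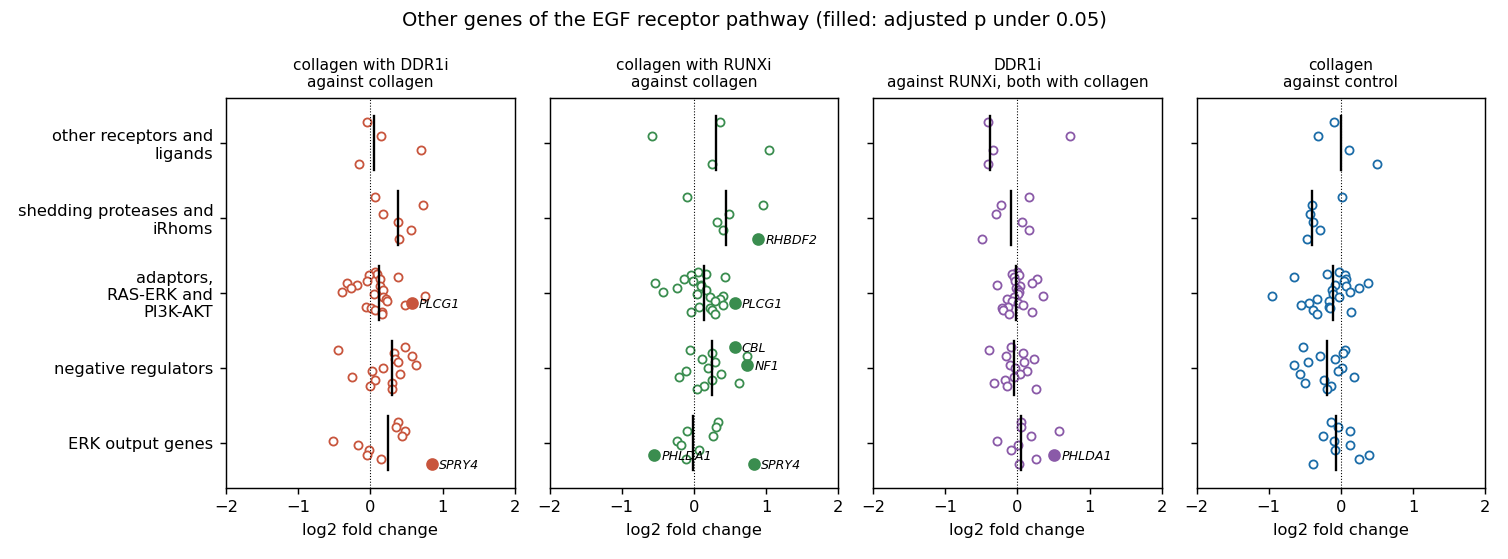
Log2 fold change (x axis) of each tested gene in 5 lists of EGF receptor pathway genes (y axis) in the 4 comparisons, filled where the edgeR adjusted p-value was under 0.05, with a vertical bar at the median of each list. Filled points are *SPRY4* and *PLCG1* with DDR1i, 6 genes with RUNXi, *PHLDA1* between the inhibitors and none for collagen against control.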

How the data were processed

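RNA-seq libraries were prepared by the authors from MCF10A cells with TruSeq kits and sequenced as 150-base paired reads. The deposited values are raw counts of reads per gene and library, made from reads aligned with STAR to GRCh37 (hg19). The counting tool, annotation and use of strand are not given in the sources used here, so that counts of genes that overlap or have near-identical copies are uncertain. Groups and replicates came from the labels, and doses and times from the study's methods. The 9 genes, the pathway lists and the tests were chosen with earlier results of these data known.

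Tests used edgeR 4.0.16 in R 4.3.3 (TMM, filterByExpr, robust quasi-likelihood fit, Benjamini-Hochberg adjustment over all genes tested, threshold 0.05). Inhibitors were compared in a fit of 11 libraries (13548 genes, biological coefficient of variation 0.287) and collagen with control in a fit of 7 (13092 genes, 0.353), both without collagen replicate 3, which the authors removed. Intervals are 95% intervals of the log2 fold change. Alternatives used DESeq2 1.42.0 and the settings named in the closing section. The tests were tried on simulated data. Gene positions, lengths and overlaps came from GENCODE v44 lifted to GRCh37, in which 22606 of 26473 names were found, and promoters from RefSeq. Another 28 entries with a calendar date for a name were kept in library sizes. Replicates of a group differed by far more than sampling noise (chi-square divided by its degrees of freedom at least 18.7), and each counted as 1 sample.

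Same-numbered libraries were checked for pairing by the correlation of their deviations from the group means. Between DDR1i and RUNXi all 4 pairs were over 0.1 (0.118 to 0.345). The fit with a replicate block is given where it changes a call of the 9 genes, and calls of the pathway genes were not examined with a block. In the other comparisons 1 or 2 of 3 pairs were over 0.1. The named pathway genes were those past the threshold in a list (the 4 with the smallest adjusted p where a list had more), with *ERBB4*, *EGF*, *NRG1* and *EPGN*, and *AREGB*. *EGFR-AS1*, *MIEN1*, *PGAP3* and the genes that only DESeq2 called were named after their values were seen. For each of the 9 genes, the closing section names the 2 genes with the highest Pearson correlation of log2(CPM + 1) over the 16 libraries. Limits for a count of 0 assume 3 counts and cover counting error only. A list of immune cell markers is not reported here.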

Additional observations from a re-analysis of the deposited data

Results flagged for a closer look

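In the RUNXi group, replicate 4 stood apart for *HBEGF*, at 47.3 CPM against 20.9 to 25.0 CPM in the other 3 libraries, with a gap of 0.844 of the group's range, above the critical value of Dixon's test. The same library stood apart for *TGFA*, at 114 CPM against 75.8 to 82.0 CPM, with a gap of 0.834 of the range. These were 2 of 36 groups of 4 values examined, and chance alone gives about 1.8 of them. Replicate 4 was also the highest library for *TGFA* in each of the other 3 groups.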

How the results depend on the processing

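The number of the 9 genes called was 0 in each comparison and became 1 with DESeq2 for DDR1i, RUNXi and collagen against control (*EGFR* each time). With no filter on low counts it was 1 for DDR1i (*EGFR*), 2 for RUNXi (*EGFR* and *HBEGF*), 1 between the inhibitors (*ERRFI1*) and 2 for collagen against control (*EGFR* and *HBEGF*). There the edgeR adjusted p of *EGFR* was 3.76e-11 for DDR1i, 1.60e-09 for RUNXi and 4.98e-11 for collagen against control. With the filter these were 0.0806, 0.0834 and 0.107. With a replicate block the number called was 1 for RUNXi (*HBEGF*, -0.76, edgeR adjusted p = 0.0340) and 1 between the inhibitors (*ERRFI1*, -0.56). For RUNXi against collagen, 1 of 3 same-numbered pairs was over 0.1. The block changed no other call of the 9 genes. With all 4 groups in one fit it was 1 for collagen against control (*EGFR*, edgeR adjusted p = 0.0359). When single libraries were left out, the number ranged from 0 to 1 in each of the 3 inhibitor comparisons and stayed at 0 for collagen against control. *EGFR* was called for DDR1i without DDR1i replicate 1 (edgeR adjusted p = 0.0117) and for RUNXi without DDR1i replicate 1 (0.0290) or 4 (0.0457). The causes were not tested.

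Over all genes, the calls for DDR1i, RUNXi, DDR1i against RUNXi and collagen against control numbered 334, 549, 77 and 0. They were 833, 1153, 134 and 415 with DESeq2, 755, 1046, 163 and 284 with no filter, 9, 60, 67 and 0 with collagen replicate 3 included, and 156, 200, 89 and 0 with the length trend removed. With a replicate block they were 537, 759, 154 and 0, and with all 4 groups in one fit 233, 395, 66 and 313. Without collagen replicate 4 they were 87, 123, 109 and 0. With collagen replicate 3 included, DESeq2 gave 38, 145, 120 and 0 and all 16 libraries in one edgeR fit gave 6, 55, 58 and 0. These last settings, and those of the pathway genes, were chosen after seeing the data.

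Of 368 log2 fold changes of the 9 genes under other settings, 343 kept their direction and side of the threshold, 12 passed it and 13 changed sign, all of the latter for differences that were not called. For DDR1i these were *AREG* with the length trend removed (0.041), and *HBEGF* and *BTC* with collagen replicate 3 included (0.0041 and 0.014), also with DESeq2 (0.0071 and 0.017) and with all 16 libraries in one fit (0.015 and 0.020). Between the inhibitors *EREG* was -0.00057 with at least 10 counts in every library and -0.025 with the length trend removed. For collagen against control the length trend gave 0.082 for *ERBB3* and 0.034 for *EREG*, and *BTC* was -0.37 with a replicate block and -0.086 without control replicates 2 and 3. Of 360 values with 1 library left out, 329 stayed, 5 passed the threshold and 26 changed sign. For the genes with a change of sign the ranges were -0.23 to 0.12 (*AREG*), -0.45 to 0.011 (*HBEGF*) and -0.49 to 0.62 (*BTC*) for DDR1i, and -0.089 to 0.28 (*AREG*), -0.30 to 0.051 (*TGFA*) and -0.10 to 1.04 (*BTC*) for RUNXi. Between the inhibitors they were -0.083 to 0.26 (*EGFR*), -0.070 to 0.043 (*ERBB2*), -0.025 to 0.28 (*ERBB3*), -0.16 to 0.12 (*EREG*) and -0.73 to 0.040 (*BTC*). For collagen against control they were -0.33 to 0.083 (*ERBB3*), -0.16 to 0.085 (*EREG*) and -0.39 to 0.72 (*BTC*). The sum of *AREG* and *AREGB* was not run, because *AREGB* has no entry. DESeq2 gave no adjusted p for *BTC* and *ERBB3* in 3 comparisons, and these values were counted as not called. *BTC* and *ERBB3* had the lowest counts of the 9 genes, with 447 and 2110 in all.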

Other observations

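Across all 16 libraries, the pairs of members with the highest Pearson correlation of log2 CPM were *EGFR* with *ERBB2* (Pearson's r 0.736, Spearman's rho 0.541) and *AREG* with *TGFA* (0.706 and 0.674). By Spearman's rho *AREG* with *HBEGF* (0.576) was above *EGFR* with *ERBB2*. The lowest was *ERBB3* with *EREG* (-0.447 and -0.432). These are descriptions over 16 libraries, in which both genes of a pair share the treatment, the depth and any trend of their library with transcript length.

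Among 13518 genes, the pattern of *EGFR* over the 16 libraries was most like that of *EIF3A*, which encodes a subunit of a translation initiation factor (r = 0.966), and *CHD7*, which encodes a chromatin remodeller (r = 0.960). For *ERBB2* the nearest genes were *RREB1* (0.895) and *ZNF609* (0.885), and for *ERBB3* they were *NPIPB4* (0.891), a member of a family of near-identical copies, and *DDX60L* (0.879). *AREG* was nearest to *SLC35D2* (0.863) and *SSR3* (0.846), *EREG* to *ZFP91* (0.819) and *SFXN1* (0.810), and *HBEGF* to *CAPN12* (0.806) and *DYNC2LI1* (0.792). *TGFA* was nearest to *ANXA3*, which encodes an annexin (0.935), and *FAM177A1* (0.878). *BTC* was nearest to *NECAP1* (0.918) and *KLHL42* (0.841), and *ERRFI1* to *CYP4B1* (0.873) and *FBXL20* (0.853). By Spearman's rho the pairs ranged from 0.709 (*EREG* with *SFXN1*) to 0.944 (*TGFA* with *ANXA3*), with 0.732 and 0.765 for those of *ERBB2*. Each was picked as the highest among all these genes, and *BTC* had 0 to 55 counts per library.

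Other neuregulins had few counts. *NRG2* had 286 counts in 13 libraries, *NRG4* had 273 in 12 and *NRG3* had 2 in a single library, against 5697 for *NRG1* in all 16.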
